A study of Homo sapiens with 24 samples.

Results

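The response of total RNA to depletion of RICTOR was compared between H460 and A549, a pair of human lung cancer cell lines. Groups of 3 total RNA libraries, 4 in all, entered the comparison and made up 12 of the 24 libraries of the series: H460 cells with an siRNA against RICTOR (siRIC), H460 cells with a control siRNA (siNT), A549 cells with siRIC and A549 cells with siNT. The members were therefore libraries, chosen by their labels, and all genes that passed a filter on low counts were tested, 16100 of the 60666 genes in the table. The other 12 libraries held RNA from polysomal fractions of the same lines. They were used as a further readout and, in an alternative fit, together with the total RNA libraries. H460 is a large cell lung carcinoma line and A549 a lung adenocarcinoma line, and each is a single established line that the labels give as wild type. All cells were grown in RPMI medium with serum and were transfected. The labels give neither the number of siRNA sequences nor the time between transfection and harvest, so effects of the siRNA reagent and of RICTOR loss cannot be told apart.

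RICTOR is the scaffold that defines mTOR complex 2 (mTORC2), which phosphorylates kinases of the AGC family such as AKT, SGK and protein kinase C. AKT in turn restrains FOXO transcription factors and promotes nutrient uptake and lipid synthesis, partly through the SREBP factors that drive sterol and fatty acid genes. Both lines are known to carry a defective KEAP1 gene that leaves the NRF2 antioxidant program switched on.

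Library totals lay between 19482360 and 26550160 estimated counts, and mitochondrially encoded genes took 13.5% to 18.0% of them. In H460 the siRIC libraries were the deeper ones, with 25132002 to 25653919 counts against 19482360 to 22534873 with siNT. In A549 the ranges overlapped. After all libraries were thinned to equal depth 409 genes differed between the lines, 386 of them shared with the 548 given here. Levels are given as CPM, counts scaled by TMM to the same library size, in the order of replicates 1, 2 and 3. Libraries of 1 line with the same replicate number formed a pair, and a response is the log2 change of siRIC over siNT within pairs. Replicates 1, 2 and 3 carry library numbers 4, 6 and 7 in H460 and 3, 4 and 6 in A549. A replicate number is therefore not shared between the lines, and the labels do not give the meaning of the library numbers. A difference is the response in H460 minus the response in A549, given with its standard error (SE), over 3 pairs in each line. The labels do not say that replicates were separate cultures, so the p-values measure the spread between these samples. In total RNA, more RNA of a gene per cell and a larger share of cells with that gene active cannot be told apart.

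RICTOR itself (ENSG00000164327, chromosome 5, 38937920 to 39074399) fell in both lines. H460 had 5.84, 7.46 and 6.58 CPM with siRIC, against 19.3, 19.6 and 18.5 CPM with siNT, and A549 had 12.8, 10.3 and 13 CPM with siRIC, against 32.5, 27 and 35 CPM with siNT. Every siRIC library lay below every siNT library of its line. The responses were −1.53 ± 0.09 (adjusted p = 1.3e-06) in H460 and −1.39 ± 0.08 (adjusted p = 4.43e-07) in A549, and their difference of −0.14 ± 0.12 (adjusted p = 0.563) did not pass the test. ARNT (ENSG00000143437, chromosome 1, 150809713 to 150876599), which pairs with HIF1A or AHR to bind DNA, fell in both lines as well. It was at 19, 18.3 and 18.5 CPM with siRIC, against 29, 25.4 and 26.1 CPM with siNT in H460, and at 19.1, 14.7 and 20.8 CPM with siRIC, against 30.4, 28.8 and 31.1 CPM with siNT in A549, and siRIC did not overlap siNT in either line. Its difference was 0.20 ± 0.11 (adjusted p = 0.359). HIF1A had responses of −0.13 ± 0.05 (adjusted p = 0.124) in H460 and −0.16 ± 0.05 (adjusted p = 0.0364) in A549, and a difference of 0.03 ± 0.07 (adjusted p = 0.88).

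The responses of the lines differed for 548 of the 16100 genes tested (3.4%), with 287 higher in H460 (1.78%) and 261 lower in H460 (1.62%). These counts come from edgeR's quasi-likelihood test with the pairs as a block and a Benjamini-Hochberg adjusted p under 0.05, and 2891 genes had an unadjusted p under 0.05. Within the lines, 879 genes changed in H460 (5.46%), 322 up (2%) and 557 down (3.46%), and 1962 changed in A549 (12.2%), 838 up (5.2%) and 1124 down (6.98%). Of the 548 genes 114 (20.8%) passed the test in H460 alone and 337 (61.5%) in A549 alone. A further 26 (4.74%) changed in opposite directions in both lines, 28 (5.11%) changed in the same direction by unequal amounts, and 43 (7.85%) passed in neither line. The absolute response of the 548 genes had a median of 0.161 in H460 and 0.343 in A549, beside 0.123 in H460 and 0.135 in A549 over all genes tested. Without the pairing 2 genes passed, IL1RAP and DCLK1, with 1057 at an unadjusted p under 0.05, so no other of the called genes passed without it. All 548 had the same sign without it, and 412 of them an unadjusted p under 0.05. Both fits use the same libraries and give nearly equal estimates, such as −1.55 with and −1.54 without the pairing for IL1RAP. The shared sign is therefore no separate support, and the 412 were counted among genes chosen from the same libraries. Leaving out 1 pair gave 825, 272 and 240 genes without H460 pairs 1, 2 and 3, and 214, 161 and 184 without A549 pairs 1, 2 and 3.

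Pairs of A549 resembled each other more than pairs of H460 did. Over 9811 genes averaging 5 CPM or more in each line, the changes of any 2 H460 pairs correlated across genes with r of 0.261 to 0.361, and those of any 2 A549 pairs with 0.566 to 0.599. An H460 pair and an A549 pair correlated with 0.162 to 0.266, and the fitted responses of the lines with 0.334. These values describe genes within the same libraries, which are not independent replicates. The 3 paired changes of H460 lay above all 3 of A549 for 2238 genes (13.9%) and below all 3 for 1750 genes (10.9%). Among the 548 genes they did not overlap for 542. The calls rest on the same pairs, so this separation follows largely from the call and is no separate support.

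**Figure D1:**
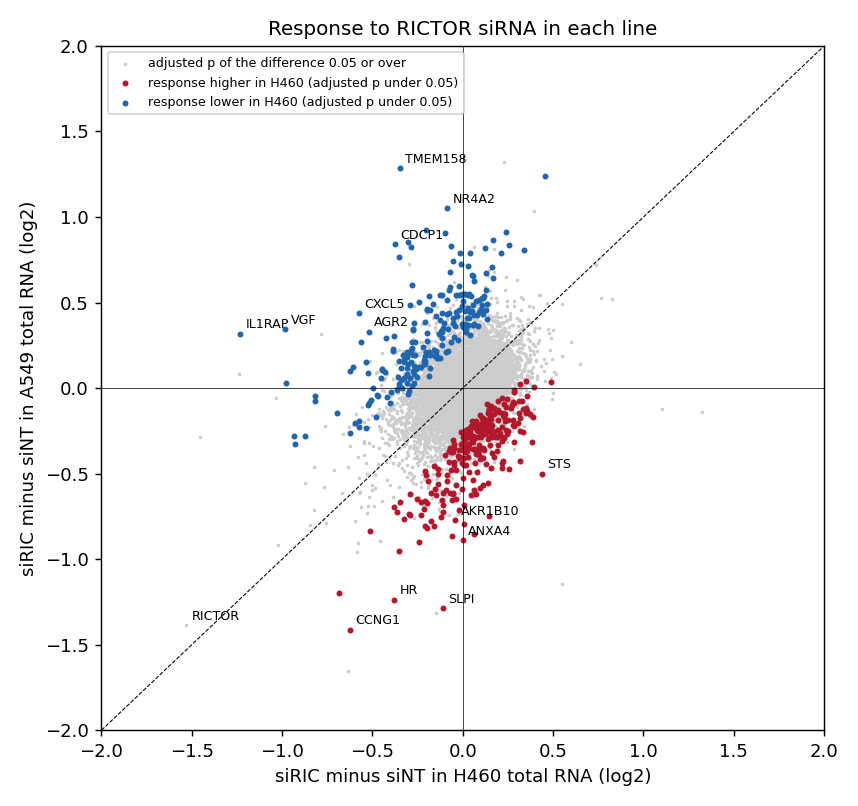
Response to RICTOR siRNA in H460 (horizontal axis) and in A549 (vertical axis), as fitted log2 changes of siRIC over siNT in total RNA, for 9810 genes averaging 5 CPM or more in each line; 1 further such gene lies outside the axes. Red and blue points are genes whose response was higher or lower in H460 at an adjusted p under 0.05, grey points are the others, and RICTOR lies near the dashed line of equal responses.

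Among genes with the lowest response in H460 relative to A549, some fell in H460, some rose in A549 and some did both. IL1RAP (ENSG00000196083, chromosome 3, 190514085 to 190659750), the accessory chain shared by interleukin-1 family receptors, had 20.1, 23.4 and 16.7 CPM with siRIC, against 45.4, 49.9 and 45.5 CPM with siNT in H460. IL1RAP in A549 was at 7.64, 7.58 and 8.05 CPM with siRIC, against 5.3, 6.77 and 6.6 CPM with siNT. All H460 siRIC libraries lay below the siNT libraries, with paired log2 changes of −1.17, −1.09 and −1.44, and all A549 siRIC libraries lay above the siNT ones, with 0.52, 0.16 and 0.28. The difference was −1.55 ± 0.13 (adjusted p = 0.000133), and it passed also without the pairing (adjusted p = 0.00889). DCLK1, a microtubule-associated kinase that was named after its values were seen, had 13.3, 14 and 12.8 CPM with siRIC, against 16.4, 16.1 and 15.9 CPM with siNT in H460. DCLK1 in A549 was scarce, at 1.19, 1.64 and 1.27 CPM with siRIC, against 0.212, 0.486 and 0.407 CPM with siNT. The groups did not overlap in either line, lower with siRIC in H460 and higher in A549, and the difference was −2.15 ± 0.25 (adjusted p = 0.000799), with an adjusted p of 0.021 without the pairing. VGF, a secreted neuroendocrine precursor peptide, was at 21.9, 35.9 and 22 CPM with siRIC, against 38.7, 73.5 and 46.3 CPM with siNT in H460, where it fell by 0.98 ± 0.07 on the log2 scale. VGF in A549 was at 7.9, 5.26 and 5.55 CPM with siRIC, against 5.39, 4.83 and 4.43 CPM with siNT, which overlapped, and the difference was −1.32 ± 0.13 (adjusted p = 0.000299).

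TMEM158, a membrane protein, had the largest negative difference among the genes called and averaging 5 CPM or more in each line, −1.64 ± 0.18 (adjusted p = 0.000512). It had 11, 10.8 and 8.48 CPM with siRIC, against 14, 16.6 and 8.74 CPM with siNT in H460, where the groups overlapped. TMEM158 in A549 had 13, 16 and 7.3 CPM with siRIC, against 4.88, 6.03 and 3.75 CPM with siNT, and rose by 1.29 ± 0.13. CDCP1, a transmembrane substrate of SRC kinases, changed in opposite directions, by −0.38 ± 0.08 (adjusted p = 0.0168) in H460 and by 0.84 ± 0.11 (adjusted p = 0.00035) in A549. Its difference was −1.22 ± 0.14 (adjusted p = 0.000727). ACOX2, a peroxisomal oxidase of branched fatty acids and bile acid precursors, was at −0.30 ± 0.11 in H460 and rose in A549 by 0.85 ± 0.11, a difference of −1.16 ± 0.16 (adjusted p = 0.0016). KCNF1, a silent potassium channel subunit, DLGAP1-AS2, an antisense RNA, and UNC13A, a vesicle priming protein, had H460 responses of −0.20 ± 0.14, −0.35 ± 0.11 and −0.29 ± 0.08, which did not pass. In A549 they rose by 0.92 ± 0.15, 0.77 ± 0.11 and 0.83 ± 0.10, and the differences of −1.12 ± 0.21, −1.12 ± 0.15 and −1.11 ± 0.13 had adjusted p of 0.0121, 0.00189 and 0.000675. Reads of DLGAP1-AS2 and of its overlapping gene can be told apart only if the authors' quantification used strand, which is not stated. KCNF1 lost its call without A549 pair 1 (adjusted p = 0.0608) or 2 (0.0852).

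**Figure D2:**
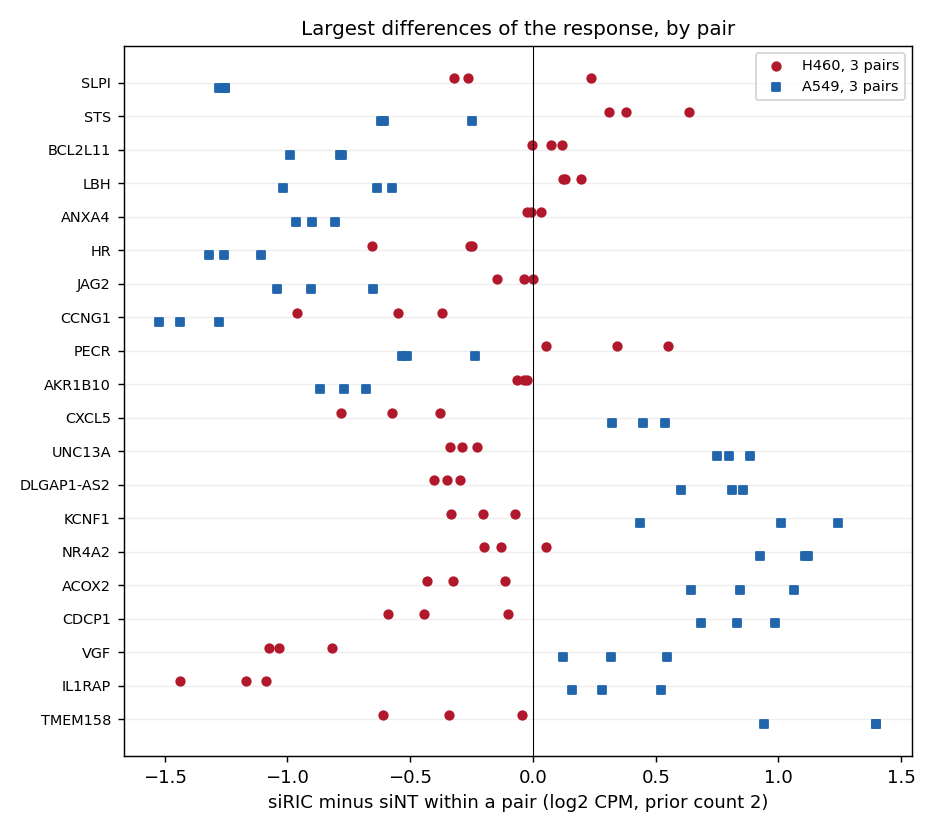
Paired log2 changes (siRIC minus siNT, log2 CPM with a prior count of 2) of the 10 genes with the largest positive and the 10 with the largest negative difference between the lines, among called genes with a standard symbol and 5 CPM or more in each line. Red circles are the 3 H460 pairs and blue squares the 3 A549 pairs, and the colours do not overlap for any of the 20 genes, a condition of the choice.

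Inflammatory and NF-κB target genes responded lower in H460 than in A549. Of 23 tested members, 9 (39.1%) had a lower response in H460, beside 1.62% of all genes, and none a higher one, with a median difference of −0.455 beside 0.01 over all genes. In H460 7 members fell, beside 3.46% of all genes, and none rose. In A549 9 rose and 2 fell, beside 5.2% and 6.98% of all genes. The list median in pairs 1, 2 and 3 was −0.15, −0.12 and −0.32 in H460 and 0.14, 0.18 and 0.13 in A549. Besides the chemokines CXCL5, CXCL1, CXCL2, CXCL3 and CXCL8, the 9 genes were LIF, a cytokine of the interleukin-6 family, BIRC3, an inhibitor of apoptosis, PTX3, a long pentraxin, and NFKB2, an NF-κB subunit. Leaving out 1 pair, the members called were 9, 4 and 4 without H460 pairs 1, 2 and 3, and 3, 3 and 4 without A549 pairs 1, 2 and 3.

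CXCL5 (ENSG00000163735, chromosome 4, 73995642 to 73998677), a neutrophil-attracting chemokine, was at 386, 640.0 and 359 CPM with siRIC, against 576, 831 and 617 CPM with siNT in H460. CXCL5 in A549 was at 177, 167 and 138 CPM with siRIC, against 130.2, 115 and 111 CPM with siNT, and every siRIC library lay above the siNT libraries there. Within pairs it was lower in 3 of 3 H460 pairs and higher in 3 of 3 A549 pairs, and the difference was −1.01 ± 0.10 (adjusted p = 0.000238). CXCL2 had 22.1, 59.7 and 21.6 CPM with siRIC, against 33.2, 74.5 and 34 CPM with siNT in H460, with replicate 2 the highest of both groups. CXCL2 in A549 had 6.14, 6.33 and 4.08 CPM with siRIC, against 4.03, 3.48 and 2.99 CPM with siNT, and the responses of −0.51 ± 0.08 in H460 and 0.66 ± 0.13 in A549 differed by −1.16 ± 0.15 (adjusted p = 0.00121). CXCL8, interleukin-8, was abundant in H460 at 1019, 725 and 975 CPM with siRIC, against 850.4, 670.4 and 1215 CPM with siNT, with overlapping groups. CXCL8 in A549 was low, at 6.76, 4.7 and 3.49 CPM with siRIC, against 2.63, 1.76 and 2.08 CPM with siNT, and rose by 1.21 ± 0.22. Its difference of −1.19 ± 0.24 (adjusted p = 0.0173) was lost without A549 pair 1 (adjusted p = 0.0946) or 2 (0.13). LIF was at 112, 99.4 and 103 CPM with siRIC, against 124, 105 and 123 CPM with siNT in H460, with overlap. LIF in A549 was at 105, 97.3 and 102 CPM with siRIC, against 70.9, 71.2 and 74.2 CPM with siNT, without overlap, and the difference was −0.65 ± 0.07 (adjusted p = 0.000618). CXCL1, CXCL2 and CXCL3 are close paralogs, and how their shared reads were divided is not stated, so their separate levels are uncertain.

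Promoters of 3 of these chemokines are shown because they carry the same NF-κB motif at nearly the same place. The windows run from 250 bases before to 50 bases after the transcription start, as given by RefSeq on GRCh38.p14, written 5′ to 3′ along the gene: chr4:73998628-73998927, minus strand for CXCL5, chr4:74099146-74099445, minus strand for CXCL2 and chr4:73740319-73740618, plus strand for CXCL8. Capitals mark GGAATTTCC, searched on both strands, and in CXCL8 also the AP-1 motif TGAGTCA, which lies on the opposite strand and so reads as its reverse complement.
CXCL5: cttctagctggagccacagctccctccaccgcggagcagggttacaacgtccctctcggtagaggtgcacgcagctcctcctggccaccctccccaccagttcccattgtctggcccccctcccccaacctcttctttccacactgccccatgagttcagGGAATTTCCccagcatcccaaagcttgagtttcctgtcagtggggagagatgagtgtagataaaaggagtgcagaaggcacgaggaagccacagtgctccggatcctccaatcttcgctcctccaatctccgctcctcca
CXCL2: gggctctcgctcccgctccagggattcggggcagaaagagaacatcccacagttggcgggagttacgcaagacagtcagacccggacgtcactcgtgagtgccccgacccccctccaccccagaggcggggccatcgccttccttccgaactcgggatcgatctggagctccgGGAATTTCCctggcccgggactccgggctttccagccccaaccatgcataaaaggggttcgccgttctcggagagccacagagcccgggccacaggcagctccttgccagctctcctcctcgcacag
CXCL8: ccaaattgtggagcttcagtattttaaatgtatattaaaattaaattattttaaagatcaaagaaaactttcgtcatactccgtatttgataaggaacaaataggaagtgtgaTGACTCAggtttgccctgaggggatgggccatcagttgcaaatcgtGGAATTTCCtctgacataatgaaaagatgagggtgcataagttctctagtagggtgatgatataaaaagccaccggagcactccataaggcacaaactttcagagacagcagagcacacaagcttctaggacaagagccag
GGAATTTCC began 90, 77 and 91 bases before the start of CXCL5, CXCL2 and CXCL8. It was found in 50 of 11695 promoters of tested genes (0.428%), in 7 of 199 promoters of genes lower in H460 (3.52%) and in 1 of 213 promoters of genes higher in H460 (0.469%). Of the 19 list members with a promoter sequence 8 held it: CXCL1, CXCL2, CXCL3, CXCL5, CXCL8, NFKB1, ICAM1 and NFKBIA. The 7 promoters of genes lower in H460 include those of CXCL1, CXCL2, CXCL3, CXCL5 and CXCL8. The share of 3.52% therefore rests mostly on these related chemokines and does not describe the lower genes in general. TGAGTCA was found in 3.09% of all these promoters, in 7.54% of those of genes lower in H460 and in 2.35% of those of genes higher in H460. The motifs were chosen after the responses were known, and a match describes letters only.

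Of 21 tested feedback genes of ERK signalling 8 had a lower response in H460, beside 1.62% of all genes, and none a higher one. The median difference was −0.30. In H460 1 rose, beside 2% of all genes, in A549 12 rose, beside 5.2% of all genes, and none fell in either line. The 8 members were the phosphatases DUSP4 and DUSP6, the receptor tyrosine kinase inhibitors SPRY2 and SPRY4, the transcription factor ETV4, PHLDA1, IER3 and SPRYD4, a SPRY-domain protein that is not known as an ERK feedback gene. DUSP4 had 309, 264 and 299 CPM with siRIC, against 266, 246 and 265 CPM with siNT in H460. DUSP4 in A549 was at 186, 171 and 176 CPM with siRIC, against 111, 115 and 115 CPM with siNT. The siRIC libraries overlapped the siNT libraries in H460 and lay above all of them in A549, and the difference was −0.48 ± 0.07 (adjusted p = 0.00319). SPRY2 had 20.0, 17.4 and 21.6 CPM with siRIC, against 16.7, 15.8 and 20.2 CPM with siNT in H460. SPRY2 in A549 had 14.4, 13.6 and 12.3 CPM with siRIC, against 7.51, 7.71 and 6.83 CPM with siNT. It was at 0.17 ± 0.07 in H460, rose by 0.87 ± 0.08 in A549, and differed by −0.70 ± 0.11 (adjusted p = 0.00548). PHLDA1, a pleckstrin homology-like protein induced by ERK, and ETV4 had H460 responses of −0.02 ± 0.05 and 0.04 ± 0.05 and rose in A549 by 0.55 ± 0.05 and 0.54 ± 0.06. The differences were −0.57 ± 0.07 (adjusted p = 0.00117) for PHLDA1 and −0.49 ± 0.08 (adjusted p = 0.00409) for ETV4. In fits without 1 pair the count was 7, 5 and 5 without H460 pairs 1, 2 and 3, and 6, 4 and 5 without A549 pairs 1, 2 and 3.

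Immediate early genes are the first transcription factors induced by growth signals. Of 23 tested members 4 had a lower response in H460, beside 1.62% of all genes, and none a higher one. NR4A1, an orphan nuclear receptor, was at 177, 144 and 142 CPM with siRIC, against 167, 151 and 160.4 CPM with siNT in H460. NR4A1 in A549 was at 124, 85.7 and 100.3 CPM with siRIC, against 76.5, 48.6 and 61 CPM with siNT. The H460 groups overlapped, the A549 groups lay apart with siRIC above, and the difference was −0.80 ± 0.08 (adjusted p = 0.000253). NR4A2, a close relative, had paired log2 changes of −0.13, 0.05 and −0.20 in H460 and of 0.92, 1.12 and 1.11 in A549, a difference of −1.14 ± 0.13 (adjusted p = 0.000618). EGR1, a zinc finger factor, fell in H460 by 0.68 ± 0.13, was at 0.53 ± 0.19 (adjusted p = 0.0969) in A549, and differed by −1.21 ± 0.23 (adjusted p = 0.015). EGR1 in A549 was scarce, at 2.9, 2.71 and 2.62 CPM with siRIC, against 2.42, 1.61 and 1.72 CPM with siNT. IER2 was at −0.02 ± 0.06 in H460, rose in A549 by 0.46 ± 0.06, and differed by −0.48 ± 0.08 (adjusted p = 0.0087). EGR1 lost its call without A549 pair 2 (adjusted p = 0.109) or 3 (0.0796), and IER2 without A549 pair 2 (0.0628). Members called without 1 pair numbered 7, 4 and 4 without H460 pairs 1, 2 and 3, and 4, 2 and 4 without A549 pairs 1, 2 and 3. The list had a median difference of −0.20, with medians in pairs 1, 2 and 3 of 0.03, −0.07 and −0.12 in H460 and of 0.13, 0.16 and 0.18 in A549.

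**Figure D3:**
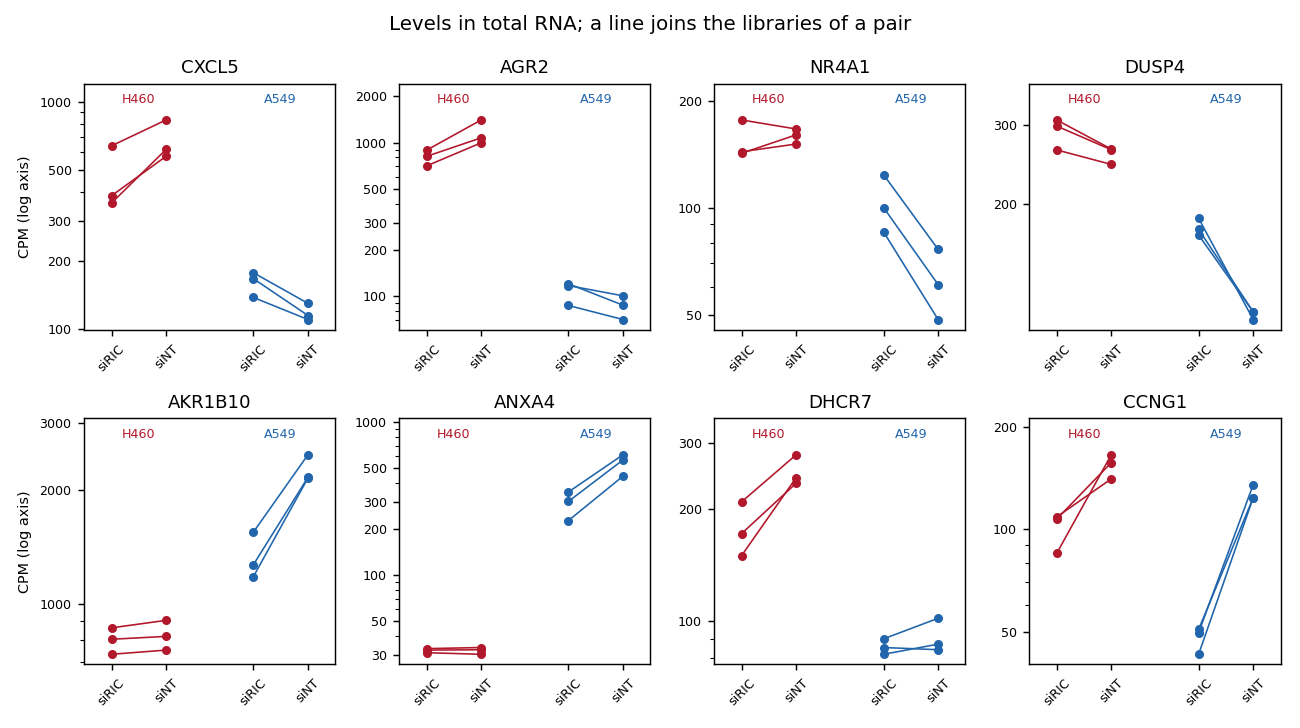
Levels of 8 genes in CPM (log axis) in the 12 total RNA libraries, H460 in red and A549 in blue, each with siRIC left of siNT; a line joins the libraries of a pair. CXCL5 and AGR2 slope in opposite directions in the lines, AKR1B10 and ANXA4 are nearly level in H460 and lower with siRIC in A549, and DHCR7 is lower with siRIC in the H460 pairs.

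Aldo-keto reductases, NADPH-dependent enzymes that reduce carbonyl compounds and steroids, had 4 of 10 tested members (40.0%) with a higher response in H460, beside 1.78% of all genes, and a median difference of 0.565. In H460 1 rose and 2 fell, beside 2% and 3.46% of all genes, and in A549 5 fell, beside 6.98% of all genes. AKR1B10 (ENSG00000198074, chromosome 7, 134527567 to 134541412) was at 805, 863 and 735 CPM with siRIC, against 819, 904 and 754 CPM with siNT in H460. AKR1B10 in A549 was at 1269, 1180 and 1547 CPM with siRIC, against 2161, 2151 and 2478 CPM with siNT. The H460 groups overlapped, all A549 siRIC libraries lay below the siNT libraries, and the difference was 0.73 ± 0.06 (adjusted p = 0.000133). AKR1C2 had 345, 293 and 267 CPM with siRIC, against 389, 327 and 297 CPM with siNT in H460. AKR1C2 in A549 had 1821, 1554 and 2095 CPM with siRIC, against 3239, 2802 and 3479 CPM with siNT, and the difference was 0.64 ± 0.06 (adjusted p = 0.000206). AKR1C1 differed by 0.64 ± 0.06 (adjusted p = 0.000253) and AKR1C3 by 0.49 ± 0.07 (adjusted p = 0.0016). All 4 kept their calls in each of the 6 fits without 1 pair, and the division of counts among the near-identical AKR1C genes is uncertain.

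Other targets of NRF2, the transcription factor of the antioxidant response, had 12 of 39 tested members with a higher response in H460 against 1 lower. Over all genes these shares were 1.78% and 1.62%, and the list had a median difference of 0.20. In H460 6 fell, beside 3.46% of all genes, in A549 26 fell, beside 6.98% of all genes, and none rose in either line. CYP4F11, a fatty acid hydroxylase, differed by 0.60 ± 0.09 (adjusted p = 0.00479). HMOX1, heme oxygenase, was at 21.2, 25.1 and 20.6 CPM with siRIC, against 21.1, 25.2 and 19.1 CPM with siNT in H460, and at 85.5, 87 and 91.8 CPM with siRIC, against 123, 131 and 118 CPM with siNT in A549. HMOX1 groups overlapped in H460 and lay apart in A549, and the difference was 0.53 ± 0.09 (adjusted p = 0.00577). TKT, transketolase of the pentose phosphate pathway, had 1106, 1008 and 992 CPM with siRIC, against 1148, 1150 and 1112 CPM with siNT in H460. TKT in A549 had 1243, 1031 and 1267 CPM with siRIC, against 1756, 1468 and 1781 CPM with siNT. Each TKT siRIC library lay below the siNT libraries of its line, yet its H460 response of −0.14 ± 0.04 (adjusted p = 0.0807) did not pass. TKT differed by 0.36 ± 0.06 (adjusted p = 0.00602), and TRIM16, a ubiquitin ligase, by 0.38 ± 0.06 (adjusted p = 0.00649). PGD and TALDO1, further enzymes of the pentose phosphate pathway, differed by 0.37 ± 0.06 and 0.28 ± 0.06, FTL, the ferritin light chain, by 0.34 ± 0.07, and UGDH, which makes UDP-glucuronate, by 0.37 ± 0.07. The single lower member was ALDH3A1, an aldehyde dehydrogenase, which fell by 0.58 ± 0.05 in H460 and by 0.23 ± 0.05 in A549. With 1 pair left out, the members called were 14, 5 and 7 without H460 pairs 1, 2 and 3, and 6, 7 and 6 without A549 pairs 1, 2 and 3.

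GCLM, the regulatory subunit of glutamate-cysteine ligase in glutathione synthesis, is shown with its promoter because the antioxidant response motif TGACNNNGC stands near its start. It was at 124, 129 and 135 CPM with siRIC, against 114, 121 and 124 CPM with siNT in H460. GCLM in A549 was at 107, 117 and 109.7 CPM with siRIC, against 132, 137 and 118 CPM with siNT. The siRIC libraries overlapped the siNT libraries in H460 and lay below them in A549, and the difference was 0.32 ± 0.07 (adjusted p = 0.0261). The window, chr1:93909381-93909680, minus strand (GRCh38.p14, RefSeq), has the motif in capitals, printed as the reverse complement since it lies on the opposite strand, with its first base 34 bases before the start.
GCLM: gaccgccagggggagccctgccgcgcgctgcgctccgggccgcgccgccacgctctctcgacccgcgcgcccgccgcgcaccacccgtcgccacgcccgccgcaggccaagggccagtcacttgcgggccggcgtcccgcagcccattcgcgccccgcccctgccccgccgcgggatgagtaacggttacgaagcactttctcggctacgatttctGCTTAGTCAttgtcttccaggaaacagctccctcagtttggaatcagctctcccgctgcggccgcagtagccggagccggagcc
The motif, searched on both strands, was present in 9 of the 28 list members with a promoter sequence (32.1%), beside 1781 of 11695 promoters of tested genes (15.2%), 25 of 213 of genes higher in H460 (11.7%) and 41 of 199 of genes lower in H460 (20.6%).

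All 10 genes that the naming rule took for the largest higher response in H460 fell in A549. The rule asks for a called difference, a standard symbol, 5 CPM or more in each line and paired changes that do not overlap between the lines. ANXA4 (ENSG00000196975, chromosome 2, 69643808 to 69827112), a calcium-dependent membrane-binding annexin, had 33.2, 31.3 and 32.5 CPM with siRIC, against 33.8, 30.5 and 32.7 CPM with siNT in H460. ANXA4 in A549 had 304, 228 and 351 CPM with siRIC, against 568, 445 and 614 CPM with siNT. The H460 groups overlapped, all A549 siRIC libraries lay below the siNT libraries, and the difference was 0.89 ± 0.07 (adjusted p = 0.000133). SLPI, a secreted inhibitor of leukocyte proteases, was at 8.33, 4.69 and 6.9 CPM with siRIC, against 7.05, 5.88 and 8.3 CPM with siNT in H460. SLPI in A549 was at 3.12, 2.07 and 3.85 CPM with siRIC, against 7.55, 5.05 and 9.45 CPM with siNT. Its difference of 1.18 ± 0.20 (adjusted p = 0.00708) was the largest positive one among the genes called and averaging 5 CPM or more in each line, while genes that did not pass had larger fitted values. BCL2L11, the pro-apoptotic protein BIM, was at 8.62, 10.8 and 8.68 CPM with siRIC, against 8.63, 10.00 and 8.26 CPM with siNT in H460. BCL2L11 in A549 was at 12.7, 10.3 and 15.5 CPM with siRIC, against 21.8, 20.5 and 26.7 CPM with siNT, without overlap, and the difference was 0.92 ± 0.12 (adjusted p = 0.00132). STS, steroid sulfatase, rose in H460 by 0.44 ± 0.10, fell in A549 by 0.50 ± 0.11, and differed by 0.94 ± 0.15 (adjusted p = 0.00602).

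HR, a transcriptional corepressor, fell in both lines, by 0.38 ± 0.08 in H460 and by 1.24 ± 0.11 in A549, a difference of 0.86 ± 0.13 (adjusted p = 0.00479). LBH, a transcriptional regulator, was at 0.15 ± 0.09 in H460, fell by 0.74 ± 0.07 in A549, and differed by 0.89 ± 0.12 (adjusted p = 0.00134). JAG2, a Notch ligand, was at −0.06 ± 0.07 in H460, fell by 0.87 ± 0.08 in A549, and differed by 0.80 ± 0.10 (adjusted p = 0.00129). PECR, a peroxisomal enoyl-CoA reductase, had 0.31 ± 0.10 (adjusted p = 0.0982) in H460, fell in A549 by 0.43 ± 0.08, and differed by 0.74 ± 0.13 (adjusted p = 0.009). SLPI lost its call without A549 pair 3 (adjusted p = 0.051) and PECR without A549 pair 2 (0.0668).

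Among genes of the DNA damage response 5 of 33 tested members had a higher response in H460, beside 1.78% of all genes, and none a lower one. The median difference was 0.21. In H460 2 rose and 2 fell, beside 2% and 3.46% of all genes. In A549 1 rose and 11 fell, beside 5.2% and 6.98% of all genes. CCNG1 (ENSG00000113328, chromosome 5, 163437571 to 163457640), cyclin G1, fell in both lines, with 85.1, 109 and 107 CPM with siRIC, against 165, 141 and 157 CPM with siNT in H460. CCNG1 in A549 had 49.9, 51 and 43.1 CPM with siRIC, against 135, 124 and 124 CPM with siNT. No siRIC library overlapped the siNT libraries of its line, and the fall was larger in A549, with a difference of 0.79 ± 0.12 (adjusted p = 0.00479). CDKN1A, the cell cycle inhibitor p21, fell by 0.29 ± 0.05 in H460 and by 0.62 ± 0.06 in A549, a difference of 0.33 ± 0.08 (adjusted p = 0.042). CYFIP2, a subunit of the WAVE actin regulatory complex, was at 0.06 ± 0.06 in H460, fell in A549 by 0.59 ± 0.06 and differed by 0.66 ± 0.09 (adjusted p = 0.00149). ZMAT3, an RNA-binding splicing regulator, differed by 0.67 ± 0.13 (adjusted p = 0.0179), and PPM1D, a phosphatase that restrains the DNA damage response, by 0.45 ± 0.11 (adjusted p = 0.041). ZMAT3 lost its call in 4 and PPM1D in all 6 of the fits without 1 pair, in which the members called were 7, 2 and 2 without H460 pairs 1, 2 and 3, and 3, 2 and 2 without A549 pairs 1, 2 and 3.

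Of 23 tested genes of glycolysis and glucose transport 3 had a higher response in H460, beside 1.78% of all genes, and none a lower one, with a median difference of 0.15. In H460 4 members fell, beside 3.46% of all genes, in A549 14 fell, beside 6.98% of all genes, and none rose in either line. ENO1, enolase, was at 2776, 2527 and 2564 CPM with siRIC, against 2586, 2549 and 2553 CPM with siNT in H460. ENO1 in A549 was at 1858, 1863 and 1978 CPM with siRIC, against 2238, 2314 and 2339 CPM with siNT. The H460 groups overlapped and the A549 groups lay apart, and the difference was 0.31 ± 0.06 (adjusted p = 0.0125). GPI, phosphoglucose isomerase, differed by 0.38 ± 0.08 (adjusted p = 0.0171) and HK1, hexokinase, by 0.39 ± 0.08 (adjusted p = 0.0181). The count without 1 pair was 3, 2 and 3 without H460 pairs 1, 2 and 3, and 1, 0 and 1 without A549 pairs 1, 2 and 3. Targets of hypoxia-inducible factors outside glycolysis had 3 of 33 with a higher response in H460, beside 1.78% of all genes, and none with a lower one. Among the 3 were PFKFB3, which makes the glycolytic activator fructose 2,6-bisphosphate, at 0.70 ± 0.08 (adjusted p = 0.000693), and CA12, a carbonic anhydrase, at 0.44 ± 0.07 (adjusted p = 0.00724). PFKFB3 was at 27.7, 29.8 and 29.2 CPM with siRIC, against 27.7, 27 and 27.5 CPM with siNT in H460. PFKFB3 in A549 was at 149, 174 and 175 CPM with siRIC, against 217, 288 and 265 CPM with siNT, apart from siNT and lower. The median difference of this list was −0.05, opposite in sign to its 3 called members, and it ranged from −0.13 to 0.018 over the settings tried. Of the hypoxia targets the members called without 1 pair were 6, 3 and 3 without H460 pairs 1, 2 and 3, and 3, 3 and 1 without A549 pairs 1, 2 and 3. CA12 lost its call without A549 pair 3 (adjusted p = 0.0553).

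Of 25 tested genes of cholesterol synthesis and uptake 9 had a lower response in H460, beside 1.62% of all genes, and none a higher one. The median difference was −0.34. In H460 19 fell, beside 3.46% of all genes, in A549 3 fell, beside 6.98% of all genes, and none rose. Median responses in pairs 1, 2 and 3 were −0.50, −0.23 and −0.57 in H460 and −0.04, −0.09 and −0.14 in A549. DHCR7, the last reductase of the pathway, was at 172, 209 and 150.1 CPM with siRIC, against 234, 279 and 242 CPM with siNT in H460, without overlap. DHCR7 in A549 was at 85.2, 81.7 and 89.8 CPM with siRIC, against 84, 87 and 102 CPM with siNT, with overlap. It was lower with siRIC in 3 of 3 H460 pairs (−0.45, −0.42 and −0.69), while the A549 pairs had 0.02, −0.09 and −0.18, and the difference was −0.43 ± 0.09 (adjusted p = 0.0162). INSIG1, a sterol-regulated anchor of the SREBP escort protein, differed by −0.66 ± 0.16 (adjusted p = 0.048), MSMO1, a sterol methyl oxidase, by −0.59 ± 0.15 (adjusted p = 0.0487), and SQLE, squalene epoxidase, by −0.43 ± 0.10 (adjusted p = 0.0339). NSDHL, EBP and CYP51A1, all enzymes of the same route, differed by −0.38 ± 0.09, −0.31 ± 0.07 and −0.37 ± 0.09. The members called in fits without 1 pair were 7, 10 and 0 without H460 pairs 1, 2 and 3, and 0, 0 and 2 without A549 pairs 1, 2 and 3. H460 replicate 2 had the highest INSIG1 and SQLE level of the H460 replicates in both groups, and its paired changes of these genes were the smallest of the 3.

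Fatty acid synthesis genes also fell, 10 of 16 tested members in H460 and 5 in A549, beside 3.46% and 6.98% of all genes. A lower response in H460 was called for 3, beside 1.62% of all genes. FADS2, a desaturase of polyunsaturated fatty acids, fell in both lines and had 116, 168 and 116 CPM with siRIC, against 225, 284 and 243 CPM with siNT in H460. FADS2 in A549 had 314, 271 and 343 CPM with siRIC, against 361, 348 and 458 CPM with siNT. No siRIC library overlapped the siNT libraries of its line, and the fall was larger in H460, with a difference of −0.60 ± 0.09 (adjusted p = 0.0025). FASN, fatty acid synthase, fell in H460 by 0.45 ± 0.06, was at 0.06 ± 0.06 in A549, and differed by −0.51 ± 0.09 (adjusted p = 0.0078). FADS1 differed by −0.30 ± 0.08 (adjusted p = 0.0498), close to the threshold, and ACACA, acetyl-CoA carboxylase, had −0.34 ± 0.09 (adjusted p = 0.0502) and did not pass. Of 23 chaperones and unfolded protein response genes of the endoplasmic reticulum, 10 fell in H460 and 6 in A549, beside 3.46% and 6.98% of all genes. A lower response in H460 was called for 2, beside 1.62% of all genes. These were SDF2L1, at −0.38 ± 0.07 (adjusted p = 0.0125), and MANF, at −0.39 ± 0.08 (adjusted p = 0.019). MANF, a secreted neurotrophic factor induced by unfolded proteins, was at 141, 229 and 155 CPM with siRIC, against 213, 313 and 261 CPM with siNT in H460, with overlap, and at 93.1, 99.4 and 86.8 CPM with siRIC, against 105, 115 and 102 CPM with siNT in A549, without. HSPA5, the main chaperone of that compartment, fell in H460 by 0.32 ± 0.06, was at −0.05 ± 0.06 in A549, and its difference of −0.27 ± 0.08 (adjusted p = 0.0897) did not pass. Called fatty acid synthesis genes numbered 5, 4 and 2 without H460 pairs 1, 2 and 3, and 2, 2 and 2 without A549 pairs 1, 2 and 3. Called chaperone genes numbered 5, 2 and 1 without H460 pairs 1, 2 and 3, and 0, 0 and 1 without A549 pairs 1, 2 and 3.

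**Figure D4:**
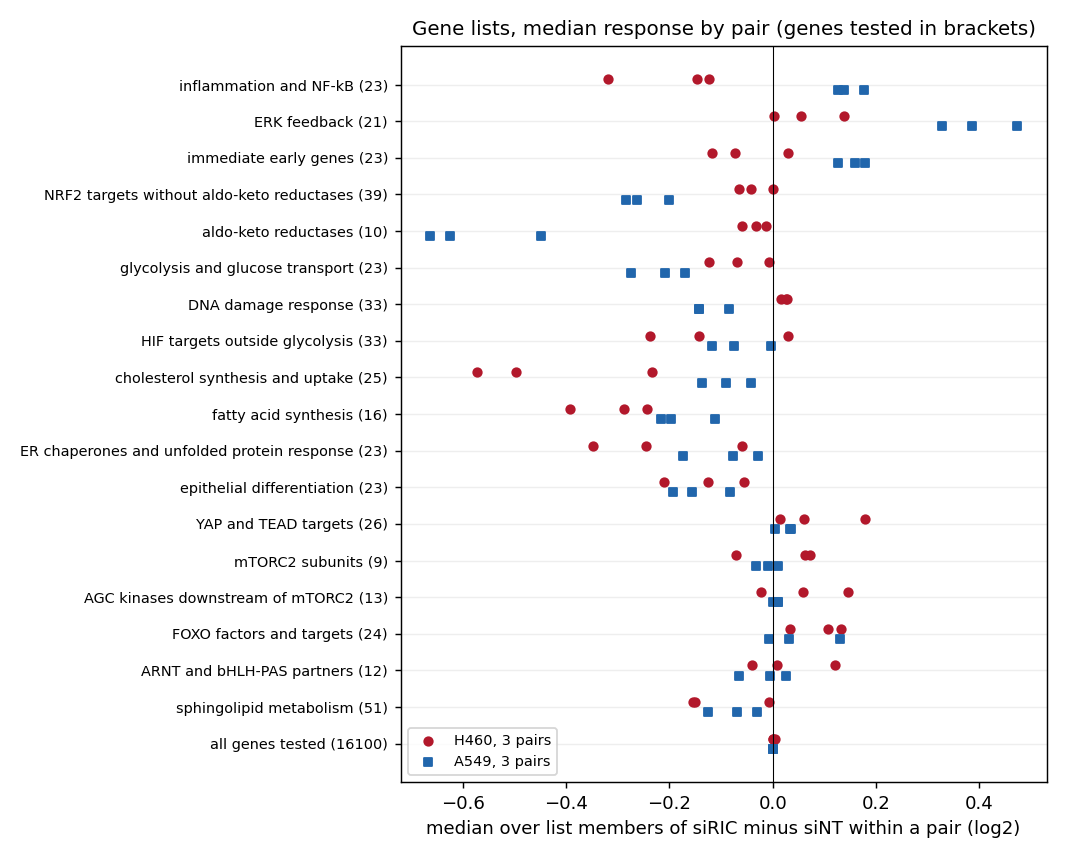
Median log2 change of siRIC over siNT over the members of 18 gene lists and over all genes tested, for each of the 3 H460 pairs (red circles) and 3 A549 pairs (blue squares), with the number of genes tested in brackets. The pairs of the lines do not overlap for inflammation, ERK feedback, immediate early genes, NRF2 targets, aldo-keto reductases, glycolysis, DNA damage response, cholesterol synthesis and fatty acid synthesis.

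Among the 9 tested genes of mTORC2 none had a difference between the lines that passed. Besides RICTOR, PRR5, a subunit specific to the complex, was at −0.19 ± 0.09 (adjusted p = 0.253) in H460 and fell in A549 by 0.34 ± 0.08, a difference of 0.15 ± 0.12 (adjusted p = 0.569). DEPTOR, an inhibitor of mTOR under 2 CPM in every library, had a difference of 1.32 ± 0.41 (adjusted p = 0.104). Among 13 AGC kinase genes downstream of the complex 1 differed in each direction, beside 1.78% higher and 1.62% lower of all genes. The one lower in H460 was SGK1. SGK1, a serum- and glucocorticoid-induced kinase, was at 62.3, 49.9 and 49.2 CPM with siRIC, against 59.5, 48.6 and 47.2 CPM with siNT in H460. SGK1 in A549 was at 42.5, 29.1 and 45.2 CPM with siRIC, against 31.3, 22 and 29.8 CPM with siNT, higher with siRIC in 3 of 3 pairs, and the difference was −0.43 ± 0.08 (adjusted p = 0.0104), lost without A549 pair 3 (adjusted p = 0.0622). AKT1 had a difference of 0.19 ± 0.06 (adjusted p = 0.134) and PRKCE, protein kinase C epsilon, one of −0.41 ± 0.15 (adjusted p = 0.156).

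FOXO factors and their targets had 1 of 24 tested members with a higher response in H460, BCL2L11, and 1 with a lower one, IRS2. Over all genes the shares were 1.78% and 1.62%, and a single member each way says little about the list. IRS2, an insulin receptor substrate, was at 0.05 ± 0.06 in H460, rose in A549 by 0.45 ± 0.07, and differed by −0.40 ± 0.09 (adjusted p = 0.0282), a call lost in 4 of the 6 fits without 1 pair (adjusted p up to 0.131). SESN1 and SESN3, sestrins of the stress response, had 0.61 ± 0.22 and 0.30 ± 0.12 and did not pass. Of 12 tested partners of ARNT 2 had a lower response in H460, beside 1.62% of all genes. AHR, the aryl hydrocarbon receptor, rose in both lines, at 111, 104 and 112 CPM with siRIC, against 87.2, 79.1 and 92.1 CPM with siNT in H460. AHR in A549 was at 39.4, 32.8 and 46.5 CPM with siRIC, against 20.9, 19.7 and 27 CPM with siNT. The groups did not overlap in either line, and the rise was larger in A549, with a difference of −0.47 ± 0.08 (adjusted p = 0.00548). EPAS1, the hypoxia factor HIF2A, was at 0.02 ± 0.05 in H460, rose in A549 by 0.35 ± 0.05, and differed by −0.34 ± 0.07 (adjusted p = 0.0181), lost in 4 of the 6 fits without 1 pair (adjusted p up to 0.0873).

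Of 51 tested sphingolipid genes 1 (1.96%) had a lower response in H460 and none a higher one, a share near the 1.62% of all genes. Sphingolipid genes called without 1 pair numbered 6, 0 and 0 without H460 pairs 1, 2 and 3, and 0, 0 and 0 without A549 pairs 1, 2 and 3. The gene called with all pairs was SPTLC2, a subunit of serine palmitoyltransferase that starts sphingoid base synthesis. It was at 44, 46.1 and 46 CPM with siRIC, against 44.2, 51.5 and 48.7 CPM with siNT in H460. SPTLC2 in A549 was at 57.2, 56 and 70.3 CPM with siRIC, against 49.7, 49 and 59.2 CPM with siNT, and the groups overlapped in both lines. SPTLC2 rose in A549 by 0.21 ± 0.05 and differed by −0.30 ± 0.07 (adjusted p = 0.0427), a call lost in 5 of the 6 fits without 1 pair (adjusted p up to 0.141). KDSR, the next enzyme of that route, fell in H460 by 0.47 ± 0.06 and CERS6, a ceramide synthase, by 0.40 ± 0.05. Their differences of −0.32 ± 0.08 (adjusted p = 0.0591) and −0.27 ± 0.08 (adjusted p = 0.0839) did not pass, nor did that of SPHK1, sphingosine kinase, at −0.57 ± 0.17 (adjusted p = 0.0892). In all, 8 members fell in H460, beside 3.46% of all genes, and 5 rose and 8 fell in A549, beside 5.2% and 6.98%.

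Keratins of simple epithelia fell more in A549. KRT18 was at 728, 630.3 and 609 CPM with siRIC, against 674, 676 and 692 CPM with siNT in H460. KRT18 in A549 was at 3045, 2226 and 3249 CPM with siRIC, against 4618, 3879 and 4772 CPM with siNT, without overlap, and the difference was 0.59 ± 0.08 (adjusted p = 0.00221). KRT8, its partner filament, fell in both lines, by 0.35 ± 0.04 in H460 and by 0.66 ± 0.04 in A549, a difference of 0.32 ± 0.06 (adjusted p = 0.015), while KRT81, a hair keratin, had −0.30 ± 0.07 (adjusted p = 0.0486). These were the 3 of 23 tested epithelial differentiation genes that differed, 2 higher and 1 lower in H460, beside 1.78% and 1.62% of all genes. The median difference over the list was −0.27. Summed over 6 general epithelial markers, the level was 2040 to 2240 CPM with siRIC against 2300 to 2430 CPM with siNT in H460, and 6270 to 8140 CPM against 9750 to 11600 CPM in A549. Of 8 alveolar type II markers 3 passed the filter on low counts, with summed levels of 27 to 33.6 CPM with siRIC against 25.9 to 32.2 CPM with siNT in H460 and 27.8 to 35.9 CPM against 24 to 38.6 CPM in A549, while NKX2-1 and the surfactant genes SFTPA1, SFTPA2, SFTPB and SFTPC did not. Of 7 leukocyte and blood markers CD14 and CD68 passed, with summed levels of 50.4 to 68.2 CPM against 64.4 to 88.9 CPM in H460 and 30.2 to 35.4 CPM against 42.8 to 48.4 CPM in A549, while PTPRC and CD3E did not. CD68, a lysosomal membrane protein used as a macrophage marker, fell by 0.35 ± 0.05 in H460 and by 0.58 ± 0.06 in A549, and its difference of 0.22 ± 0.08 (adjusted p = 0.156) did not pass. The part of these marker levels in the other results was not tested. Targets of YAP and TEAD differed in both directions, with 2 of 26 higher in H460, GADD45B at 0.50 ± 0.10 (adjusted p = 0.015) and WWTR1 at 0.29 ± 0.07 (adjusted p = 0.036), and 2 lower, NT5E at −0.65 ± 0.12 (adjusted p = 0.0119) and CCN2 at −0.58 ± 0.15 (adjusted p = 0.0487). Over all genes 1.78% were higher and 1.62% lower in H460. Of the keratins only KRT18 kept its call in all 6 fits without 1 pair, and none of these 4 YAP targets did. Without H460 pair 1 the epithelial genes called numbered 4 and the YAP targets 6, and without any other single pair they numbered 1 to 2 and 1 to 3.

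Genes that changed in opposite directions in the lines numbered 26, of which 9 were higher and 17 lower in H460. AGR2 (ENSG00000106541, chromosome 7, 16791811 to 16804999), a disulfide isomerase of secretory epithelia, was at 704, 813 and 892 CPM with siRIC, against 996, 1073 and 1404 CPM with siNT in H460. AGR2 in A549 was at 120.0, 86.6 and 117 CPM with siRIC, against 87, 70.2 and 100.1 CPM with siNT. Replicate levels overlapped in A549 only. It was lower in 3 of 3 H460 pairs (−0.50, −0.40 and −0.65) and higher in 3 of 3 A549 pairs (0.46, 0.30 and 0.22), and the difference was −0.85 ± 0.08 (adjusted p = 0.000253). GLIS3, a zinc finger factor, had 20.1, 16.7 and 17.4 CPM with siRIC, against 17.3, 12.7 and 15.6 CPM with siNT in H460. GLIS3 in A549 had 58, 48 and 60.0 CPM with siRIC, against 81.1, 68.3 and 80.2 CPM with siNT, and it rose by 0.25 ± 0.07 in H460, fell by 0.47 ± 0.05 in A549 and differed by 0.73 ± 0.09 (adjusted p = 0.000799). RNF19A, a ubiquitin ligase, rose by 0.22 ± 0.06 in H460, fell by 0.43 ± 0.06 in A549 and differed by 0.65 ± 0.08 (adjusted p = 0.00117). WWC3, a WW and C2 domain protein related to the Hippo regulator WWC1, differed by 0.60 ± 0.08 (adjusted p = 0.00216). Of genes with opposite signs the naming rule also took INO80B-WBP1, a readthrough transcript, and ENSG00000284057, which were each listed at 0 in 9 of the 12 libraries. INO80B-WBP1 was at 0, 0 and 0 CPM with siRIC, against 0, 0 and 5.76 CPM with siNT in H460, and at 8.03, 0 and 8.37 CPM with siRIC, against 0, 0 and 0 CPM with siNT in A549. ENSG00000284057 was at 0, 1.59 and 0.848 CPM with siRIC, against 0, 0 and 0 CPM with siNT in H460, and at 0, 0 and 0 CPM with siRIC, against 0, 0 and 3.98 CPM with siNT in A549. Their fitted differences are given only among the flagged results, since 1 or 2 libraries carried all the counts of a group.

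The level with the control siRNA was set beside the direction of the difference. Of the 261 genes lower in H460, 51.7% had a siNT level more than 2-fold higher in H460 and 9.58% more than 2-fold higher in A549. For the 287 genes higher in H460 these shares were 8.36% and 31.0%, beside 14.7% and 16.6% of all genes tested. Since the siNT libraries enter both the level and the response, these shares are a description. In 68 of the 548 genes the mean level was under 5 CPM in at least 1 line, and 16 had a library at 0 CPM. Protein-coding genes made up 95.1% of the 535 called genes with a RefSeq type, beside 88.9% of all genes with one.

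Polysomal RNA, sequenced in separate libraries of the same lines and replicate numbers, gave a further measure of each difference. It was taken as a readout of the same cultures, so the fractions are not independent. Only 4 of 15413 genes passed there (0.026%), 3 higher and 1 lower in H460, with 1149 at an unadjusted p under 0.05. The 4 were ANXA4, at 1.14 ± 0.16, DCLK1, at −3.27 ± 0.40, ENSG00000272921 and ENSG00000285565. Of the 548 genes called in total RNA 545 were measured in polysomal RNA, and 526 of these (96.5%) had the same sign, beside 9791 of 15211 genes (64.4%) measured in both. An unadjusted p under 0.05 in polysomal RNA was found for 269 of the 545 (49.4%), beside 1137 of the 15211 (7.47%). The called genes were chosen for their differences in total RNA, so the shares over all genes are not a like baseline. Differences in polysomal RNA were −1.42 ± 0.24 for IL1RAP, −1.20 ± 0.21 for CXCL5, −1.75 ± 0.32 for CXCL8, −1.20 ± 0.25 for AGR2, 0.90 ± 0.16 for AKR1B10 and 0.99 ± 0.26 for BCL2L11, each with the sign seen in total RNA. Other called genes were closer to their SE there, such as IER2 at −0.13 ± 0.22, EPAS1 at −0.16 ± 0.21 and FASN at −0.29 ± 0.25. The median difference of the immediate early genes was 0.005 in polysomal RNA, with 13 of 23 above 0, against −0.196 in total RNA. Without the pairing 0 genes passed in polysomal RNA by edgeR (244 at an unadjusted p under 0.05), and leaving out H460 pairs 1, 2 and 3 gave 1, 8 and 13 genes, and A549 pairs 1, 2 and 3 gave 34, 0 and 23.

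**Figure D5:**
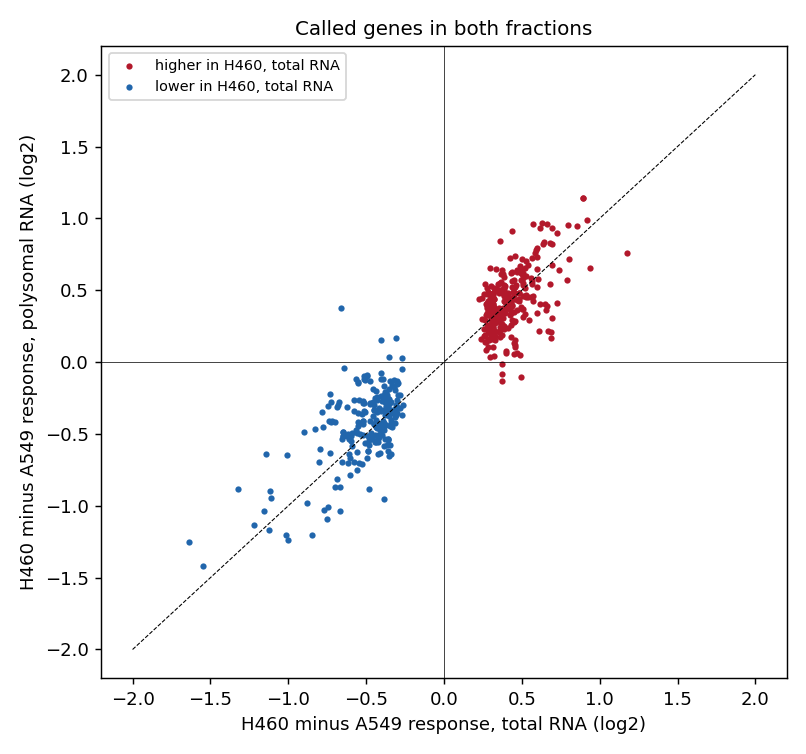
Difference of the response, H460 minus A549 (log2), in total RNA (horizontal axis) and polysomal RNA (vertical axis) for 480 genes called in total RNA and averaging 5 CPM or more in each line; HNRNPUL2-BSCL2 lies outside the axes. Red points were higher and blue points lower in H460, 471 of the 480 share their sign in the fractions, and the dashed line marks equal differences.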

How the data were processed

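The authors deposited a single matrix of estimated counts that its name credits to salmon, not normalized, with a column for each library and 0 columns of other samples. Per the submitters' processing notes, bcl2fastq 2.20 and GRCh38 were used; its version, the annotation and any filter are not given in the sources used here. Per the labels the molecule is polyA RNA, whereas the protocol depletes ribosomal RNA from total RNA, so which kind was sequenced was not settled.

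Estimated counts of the 12 total RNA libraries were rounded, filtered with filterByExpr by group (minimum count 10), scaled by TMM and tested with edgeR 4.0.16 (glmQLFit and glmQLFTest, R 4.3.3), with Benjamini-Hochberg adjustment over 16100 genes and a threshold of 0.05. Replicate number within a line was a block, which left 4 residual degrees of freedom. This pairs the samples because the labels call each replicate a batch. Deviations from the group means of libraries with the same number correlated with r of 0.0594 to 0.178 in H460 and 0.027 to 0.28 in A549, against −0.117 to 0.036 and −0.289 to 0.0192 for different numbers. Deviations cancel within a group for each gene, so a positive value for the same number pushes the others down. The ranges nearly touch and are no separate test of the pairing. Replicates of a group differed by more than sampling noise (chi-square per degree of freedom 8.82 to 35.3). SE is the absolute log2 change divided by the square root of F. Paired log2 changes used log2 CPM with a prior count of 2. Alternatives used DESeq2 1.42.0 and limma 3.58.1, other scalings and filters, all 24 libraries, fits without 1 pair and thinned libraries. On simulated data for the difference between lines (16100 genes), 69% of 100 genes changed by 0.5 log2 and 91% of 100 changed by 1 were recovered, with 13 false calls. The changes were placed only in genes averaging 5 CPM or more over the libraries, so recovery of scarcer genes was not tested. Counts were drawn independently with the dispersions fitted to these data.

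Named genes were RICTOR, ARNT and HIF1A, the 10 largest called differences in each direction with a mean of at least 5 CPM in each line, a standard symbol and paired changes that did not overlap between lines, up to 4 genes in each direction called in both lines with opposite signs, and up to 4 members of each list with the smallest p. Other members are named where a count is given, and a few genes are not reported here. The members and lists were chosen with earlier results of these data known. Symbols matched 60437 of 60666 IDs, and positions on GRCh38 were found for 14879 of the genes tested.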

Additional observations from a re-analysis of the deposited data

Results flagged for a closer look

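Each difference given here is the log2 response to RICTOR siRNA in H460 minus that in A549, and each passed edgeR's test of the difference itself in total RNA. In all, 287 genes had a higher and 261 a lower response in H460.

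Among the lower responses of inflammatory genes the difference was −1.19 for CXCL8, −1.16 for CXCL2, −1.01 for CXCL5 and −0.652 for LIF. In ERK feedback genes it was −0.701 for SPRY2, −0.567 for PHLDA1, −0.494 for ETV4 and −0.477 for DUSP4, and in immediate early genes −1.21 for EGR1, −1.14 for NR4A2, −0.795 for NR4A1 and −0.476 for IER2. Lipid genes gave −0.599 for FADS2, −0.515 for FASN, −0.433 for DHCR7, −0.426 for SQLE, −0.385 for NSDHL, −0.302 for FADS1 and −0.298 for SPTLC2, and the chaperone-related genes −0.392 for MANF and −0.375 for SDF2L1. Other genes lower in H460 had −1.64 for TMEM158, −1.55 for IL1RAP, −1.32 for VGF, −1.22 for CDCP1, −1.16 for ACOX2, −1.12 for KCNF1, −1.12 for DLGAP1-AS2, −1.11 for UNC13A and −0.849 for AGR2, and smaller values were −0.65 for NT5E, −0.58 for CCN2, −0.471 for AHR, −0.43 for SGK1, −0.402 for IRS2, −0.336 for EPAS1 and −0.298 for KRT81.

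Among the higher responses, aldo-keto reductases had 0.729 for AKR1B10, 0.643 for AKR1C2, 0.636 for AKR1C1 and 0.494 for AKR1C3, and other NRF2 targets 0.597 for CYP4F11, 0.527 for HMOX1, 0.381 for TRIM16 and 0.364 for TKT. Genes of glycolysis and hypoxia had 0.695 for PFKFB3, 0.436 for CA12, 0.388 for HK1, 0.383 for GPI and 0.306 for ENO1. Genes of the DNA damage response had 0.789 for CCNG1, 0.668 for ZMAT3, 0.659 for CYFIP2 and 0.452 for PPM1D. The remaining genes higher in H460 had 1.18 for SLPI, 0.936 for STS, 0.917 for BCL2L11, 0.892 for LBH, 0.891 for ANXA4, 0.856 for HR, 0.805 for JAG2 and 0.741 for PECR, and 0.725 for GLIS3, 0.651 for RNF19A, 0.598 for WWC3, 0.595 for KRT18, 0.497 for GADD45B, 0.317 for KRT8 and 0.294 for WWTR1.

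INO80B-WBP1 and ENSG00000284057 had fitted differences of −18.4 and 15.2. These rest on 1 to 2 libraries per group with any counts, depend on the prior count and are no bound, and each was lost without 1 pair (H460 pair 3 for INO80B-WBP1 and A549 pair 3 for ENSG00000284057, adjusted p = 1 in both).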

How the results depend on the processing

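The count of genes that differed between the lines depended on the replicate pairing and on the libraries fitted. Against 548 with the replicate block, 2 genes passed without it, and 9 of 879 passed in H460, 242 of 1962 in A549 and 0 of 4 in polysomal RNA. Fitting all 24 libraries gave 0 genes for the difference, 4 in H460 and 117 in A549 with the block (682 at an unadjusted p under 0.05 for the difference), and 0, 0 and 11 without it (382 unadjusted). DESeq2 gave 338, 527 and 1097 genes for the difference, H460 and A549, limma-trend 361, and no filter on low counts 1111, with 1416 in H460. Only library numbers 4 and 6, which occur in both lines, gave 132. Leaving out 1 pair gave 161 to 825 genes for the difference, 267 to 1088 in H460, 810 to 2548 in A549 and 0 to 34 in polysomal RNA. These fits hold fewer libraries; otherwise the cause was not tested. RLE scaling (439), upper quartile scaling (516) and thinning (409), the last chosen after seeing the data, stayed within 1.5 times of 548. Upper quartile scaling called 221 higher and 295 lower genes for the difference, turning the balance of 287 and 261, and in H460 255 higher and 666 lower genes. RICTOR's difference ranged from −0.0549 to −0.218 and passed in none of the settings. HIF1A, not called, was at −0.00761 without A549 pair 2 and 0.0507 without A549 pair 1. Of 1183 values of called named genes 381 lost their call and none reversed. The losses were uneven, with 73 of 74 genes without the block and 74 of 74 in each fit of all 24 libraries. Leaving out 1 pair lost 1 to 26 of the 74, DESeq2 14, RLE scaling 3, and upper quartile scaling or no filter 0. The settings share libraries and have similar estimates, so the lack of reversals is no separate support. Medians of the lists described kept their sign in all settings tried, except that of HIF targets (−0.13 to 0.018). Depth limits genes under 5 CPM in a line, 68 of the 548.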

Other observations

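Over 15 further lists with 504 tested members, 13 members had a higher and 8 a lower response in H460, beside 1.78% and 1.62% of all genes. The list medians of the difference lay between −0.219 and 0.133. Of 78 tested cytosolic ribosomal protein genes 3 had a higher response in H460, beside 1.78% of all genes, and none a lower one, with a median difference of 0.064. The count was 7 without H460 pair 1 and 0 without any other single pair. None of them passed within H460, and 5 fell in A549, beside 6.98% of all genes. For 26 of the 78 the paired changes of H460 lay above all those of A549, beside 13.9% of all genes. Of 40 tested genes of DNA replication and the G1/S transition 1 rose in H460, beside 2% of all genes. In A549 2 rose and 9 fell, beside 5.2% and 6.98% of all genes. A higher response in H460 was called for 1 of the 40, beside 1.78% of all genes. The members called were 5 without H460 pair 1 and 0 without any other single pair. Of 17 tested integrin genes none passed in H460, and 4 rose in A549, beside 5.2% of all genes. None had a difference that passed, though 5 did without H460 pair 1.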
